A study of Mus musculus with 26 samples.

Results

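Presence among the highest-ranked open-chromatin peaks separated naive embryonic stem (ES) cells from formative stem (FS) cells at 840 regions of the mouse genome. They were taken from 22046 regions that carried such a peak in at least 1 library of either type. The regions were chosen by presence alone. Each peak list was cut to as many peaks as the shortest list holds, keeping those with the highest −log10 p, and overlapping peaks of the lists were merged into union regions. A region counted as ES-held when all 3 ES lists and none of the 6 FS lists had a peak overlapping it by at least 1 bp, and as FS-held in the reverse case. There were 467 ES-held regions, 2.12% of the union regions, and 373 FS-held regions, 1.69%. Absence here is from the cut lists: on the full lists, 170 ES-held and 340 FS-held regions stayed absent from the other type. No single region passed Fisher's exact test of presence after adjustment. At the other end, 1661 regions had a peak in all 9 lists.

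The ES cells were grown in 2iL at passage 16 and gave 3 libraries. The FS cells were grown in A3XR and came from FS1 at passage 21 and FS2 at passage 29, with 3 libraries each. The series has 26 libraries in all, and those used here beside the 9 were 9 of epiblast stem cells (EpiSCs) and 8 of a set named Rd2. The EpiSCs were EpiSC_AF in AF medium at passage 22 and EpiSC_AFX1 and EpiSC_AFX2 in AFX medium at passages 14 and 16. Rd2 held 2 libraries of ES cells at passage 33, 4 of GFP-low sorted epiblast-like cells (EpiLC) after 2 days of induction in AF with KSR, and 2 named Rd2_AFX, which are EpiSCs at passage 16 grown in AFX. The labels do not spell out A3XR, AF, AFX or KSR. The labels name no further treatment or allele for any group, except GFP in Rd2, and whether numbered libraries of a group came from separate cultures is not stated there. The p-values below therefore measure the spread between libraries, which may be technical. FS is represented by FS1 and FS2 only, and ES by 1 passage.

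ATAC-seq marks DNA that the Tn5 transposase can reach, which is mostly active promoters, enhancers and insulator sites. In the naive state a circuit of factors that includes Esrrb, Klf4, Tfcp2l1, Tbx3 and Prdm14 holds the cells near the preimplantation epiblast. Medium 2iL blocks MEK and GSK3 and adds LIF, which keeps that circuit running. Formative cells have left this circuit, express such genes as Otx2, Fgf5 and Pou3f1, and respond to germ layer and germ cell cues, while primed EpiSCs are a later stage.

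The labels were checked against lists of marker genes, counting markers with a peak of the equal-length list within 20 kb. Of 11 naive markers, 7 to 9 had a peak in the ES lists and 2 to 5 in the FS lists. Of 9 formative markers, 0 to 2 had one in the ES lists and 2 to 5 in the FS lists; the groups did not overlap on the naive list and met on the formative list. The ranges over ES and over FS lists overlapped for primed, primitive endoderm, trophoblast, feeder fibroblast and two-cell-like markers. The lists were unequal in length before they were cut, with at most 10961 peaks in ES, 23883 to 31263 in FS1 and 11796 to 14147 in FS2. The same rank thus meant different evidence: the last peak kept had a −log10 p of 3.98 to 4.68 in ES, 7.72 to 8.98 in FS1 and 5.18 to 5.64 in FS2. Read depth is unknown, since the lists hold no counts. In a bulk culture, fewer cells with a site open and a site less open in each cell cannot be told apart.

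The promoters under the 3 highest-ranked ES-held regions that overlap one and hold in the full lists, and that of Zfp42, are shown first, because the first 3 lie in the stretch of chromosome 13 described further on. Those under the 3 highest-ranked FS-held regions of the same kind follow for comparison. Each is the 250 bases before an annotated start from RefSeq (GRCm38.p6, which is mm10), in lower case, with matches to any of 19 searched motifs in capitals.
2410141K09Rik, chr13:66441119-66441368, minus strand: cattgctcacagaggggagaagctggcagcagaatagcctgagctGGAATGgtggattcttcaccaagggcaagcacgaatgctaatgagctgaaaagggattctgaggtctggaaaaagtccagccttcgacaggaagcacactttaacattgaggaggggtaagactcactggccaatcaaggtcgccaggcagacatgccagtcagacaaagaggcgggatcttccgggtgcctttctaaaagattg
Gm40985, chr13:65415019-65415268, plus strand: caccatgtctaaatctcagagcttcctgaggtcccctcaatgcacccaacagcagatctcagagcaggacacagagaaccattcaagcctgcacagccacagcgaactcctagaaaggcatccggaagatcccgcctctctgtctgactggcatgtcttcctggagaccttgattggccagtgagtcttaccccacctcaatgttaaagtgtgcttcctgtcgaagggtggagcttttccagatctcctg
Zfp640, chr13:66680804-66681053, minus strand: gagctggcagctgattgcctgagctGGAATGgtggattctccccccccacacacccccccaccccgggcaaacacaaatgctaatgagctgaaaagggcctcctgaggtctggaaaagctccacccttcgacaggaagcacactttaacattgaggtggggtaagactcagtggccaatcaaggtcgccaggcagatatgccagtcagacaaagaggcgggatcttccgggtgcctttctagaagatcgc
Zfp42, chr8:43307010-43307259, minus strand: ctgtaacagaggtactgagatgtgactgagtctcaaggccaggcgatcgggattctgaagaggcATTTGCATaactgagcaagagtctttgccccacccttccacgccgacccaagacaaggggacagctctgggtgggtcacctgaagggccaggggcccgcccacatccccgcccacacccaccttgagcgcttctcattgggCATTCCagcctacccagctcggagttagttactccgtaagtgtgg
Slc46a3, chr5:147894816-147895065, minus strand: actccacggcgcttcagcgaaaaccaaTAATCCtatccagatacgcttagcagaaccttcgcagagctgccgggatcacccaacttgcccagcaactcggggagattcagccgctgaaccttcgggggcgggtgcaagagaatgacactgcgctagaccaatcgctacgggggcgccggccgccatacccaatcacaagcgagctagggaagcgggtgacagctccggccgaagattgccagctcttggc
Ube2u, chr4:100478617-100478866, plus strand: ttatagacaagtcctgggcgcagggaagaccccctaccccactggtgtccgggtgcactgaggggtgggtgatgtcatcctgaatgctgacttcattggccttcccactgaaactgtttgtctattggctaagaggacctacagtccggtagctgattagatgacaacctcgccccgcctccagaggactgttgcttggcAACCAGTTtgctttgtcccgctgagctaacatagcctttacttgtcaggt
Zfp385a, chr15:103334339-103334588, minus strand: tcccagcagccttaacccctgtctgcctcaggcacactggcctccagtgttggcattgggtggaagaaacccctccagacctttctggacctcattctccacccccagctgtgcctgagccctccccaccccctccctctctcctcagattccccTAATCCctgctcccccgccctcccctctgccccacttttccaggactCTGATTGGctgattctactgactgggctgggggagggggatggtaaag

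In the promoters of 2410141K09Rik and Zfp640 the capitals mark the TEAD letters GGAATG, which 12.6% of all 32817 promoters hold on either strand in the same 250 bases. In Zfp42 they mark the POU octamer ATGCAAAT, read on the other strand, and a further GGAATG on the other strand. The octamer stood in 1.6% of all promoters. The capitals in Slc46a3 mark the OTX2 letters TAATCC (6.25% of all promoters), and those in Ube2u the GRHL letters AACCNGTT (1.78%). Zfp385a held TAATCC and, on the other strand, the NFY letters CCAATCAG (3.82%). No searched motif matched in Gm40985. A match is only a match of letters in this window.

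The first question was where in the genome the regions that separate the types lie. ES-held regions were mostly distal and FS-held regions mostly genic. Of the 467 ES-held regions, 17.1% lay at a gene end, which means within 1 kb of where a protein-coding gene starts or stops, against 46.9% of the 373 FS-held regions, 40.8% of the 22044 union regions outside the mitochondrial genome and 70.4% of the regions held by all 9 lists. Regions more than 50 kb from any protein-coding gene made up 30.4% of the ES-held set (142 regions) and 4.29% of the FS-held set (16 regions), against 13.5% of all union regions. Regions inside a gene and away from its ends were 27.2% and 32.2%. The rest, outside genes and within 50 kb of one, were 25.3% and 16.6%. The farthest ES-held region was 2078 kb from a gene and the farthest FS-held one 869 kb. The ES-held share at gene ends was 30.5% against FS2 alone and 6.12% on the lists as deposited, and the FS-held share over 50 kb from a gene was 13.04% with lists of 2000 peaks. The median merged width was 501 bp for ES-held, 410 bp for FS-held and 343 bp for all union regions.

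The same contrast was present over all peaks of the lists, where it could be tested with libraries as the unit. These lists include the peaks of the ES-held and FS-held regions, so the test is not independent of the rule. In ES, 49.8%, 50.1% and 48.8% of the peaks kept lay within 1 kb of a gene end. In FS1 the shares were 60.8%, 61.4% and 61.6%, and in FS2 55.8%, 54.0% and 57.2%. Every ES library was below every FS library, and FS2 lay between ES and FS1. The mean was 49.6% ± 0.693 (SD, n = 3) in ES and 58.4% ± 3.24 (SD, n = 6) in FS, and ES minus FS was −8.86 percentage points (p = 0.0119 by exact two-sided permutation over 84 assignments, adjusted p = 0.0198 over 5 measures). This p is the smallest that 3 against 6 libraries can give.

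Peaks more than 50 kb from a gene separated the types as well. They made up 13.5%, 13.3% and 15.02% of the ES lists, 5.52%, 5.19% and 5.38% of the FS1 lists and 6.42%, 6.22% and 6.27% of the FS2 lists. Every ES library was above every FS library, and the FS lines were closer to each other than to ES. The means were 13.9% ± 0.959 (SD, n = 3) and 5.83% ± 0.528 (SD, n = 6), or 8.09 points more in ES (p = 0.0119 by exact permutation, adjusted p = 0.0198). All peaks outside genes and over 1 kb from an end differed in the same direction, with 29.2% ± 0.958 (SD, n = 3) in ES and 18.96% ± 2.22 (SD, n = 6) in FS (exact permutation p = 0.0119, adjusted p = 0.0198).

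Peaks inside genes and away from the ends were 21.2% ± 0.268 (SD, n = 3) in ES and 22.6% ± 1.06 (SD, n = 6) in FS, which did not pass the threshold (exact permutation p = 0.0595, adjusted p = 0.0744). Median peak width did not separate the types either (exact permutation p = 0.452, adjusted p = 0.452). It was 274, 279 and 279 bp in ES, 358, 359 and 376 bp in FS1 and 265, 242 and 266 bp in FS2, so ES stood between the FS lines. The −log10 p of the last peak kept was lowest in ES, and its part in these shares was not tested. With the lists cut to 5000 peaks, or with any 1 ES library left out, the differences at gene ends, outside genes and far from genes kept their direction with an adjusted p of 0.0595 (exact permutation), and so did that at gene ends without FS2 replicate 3. On the lists as deposited, which are longer for FS, the gene-end share was 1.35 points higher in ES (exact permutation, adjusted p = 0.786) and the far share 5.36 points higher in ES (exact permutation, adjusted p = 0.0595).

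**Figure D1:**
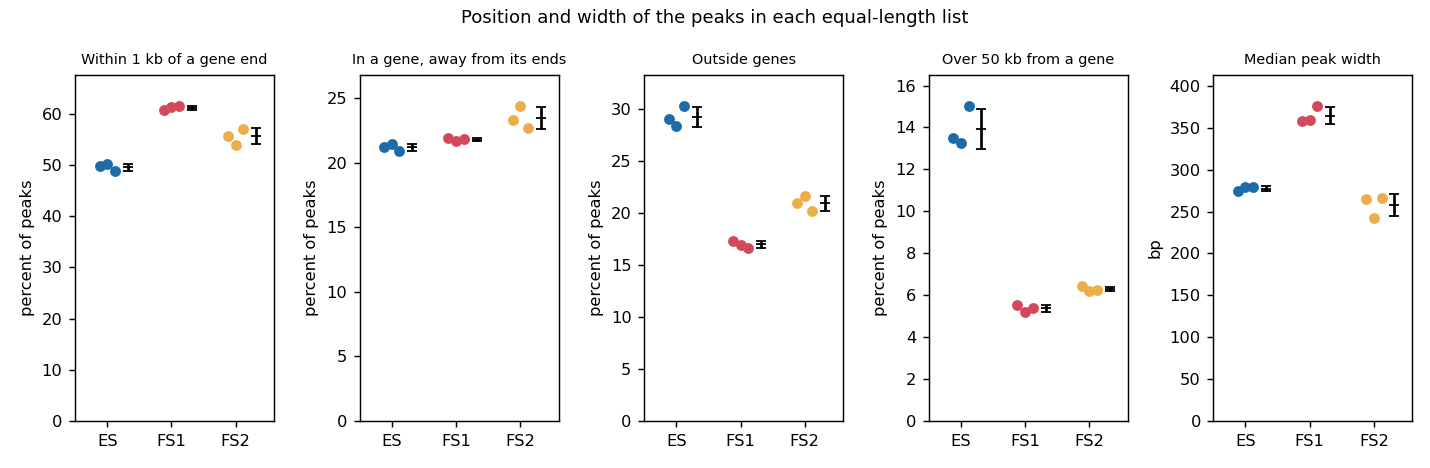
Share of the peaks of each equal-length list by position (percent, the first 4 panels) and median peak width (bp, last panel) for ES, FS1 and FS2, with each library as a point and the mean with its SD (n = 3) beside it. ES libraries sit below FS for gene ends (49.6% against 58.4% on average) and above FS for peaks over 50 kb from a gene (13.9% against 5.83%), while for width ES lies between FS1 and FS2.

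No single region passed a test of its own. Fisher's exact test of presence gave 1463 union regions with an unadjusted p under 0.05 and 0 of 22046 (0%) after Benjamini-Hochberg adjustment. With 3 against 6 libraries this test cannot go below 0.0119, and the smallest adjusted p was 0.312. Regions are therefore described without a test of their own and ordered by their mean percentile rank, which is the percent of peaks in a list with a −log10 p at or below that of the region's peak, averaged over the lists that hold it.

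Ranked within the full lists, the ES-held regions lay around the middle and the FS-held regions toward the upper end. The mean percentile rank of ES-held regions had a median of 54.2, with a lowest of 18.7 and a highest of 96.9, and 18 were above 90. That of FS-held regions had a median of 81.3, a lowest of 59.9 and a highest of 98.5, with 45 above 90. Members were taken from the cut lists, so the longer the full list, the higher the lowest rank that a member can have. The lowest rank of a member was 0.162 to 26.7 in the ES lists, 67.0 to 74.3 in FS1 and 31.9 to 43.4 in FS2. The ranks of the 2 sets are therefore not comparable.

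When absence was judged on the lists as deposited, more of the FS-held than of the ES-held regions stayed absent from the other type. Of the 373 FS-held regions, 340 (91.2%) had no peak in any of the 3 full ES lists, 30 had one in 1 list and 3 in 2 lists. Of the 467 ES-held regions, 170 (36.4%) had no peak in any of the 6 full FS lists, 96 had one in 1 list and 17 in all 6. The ES-held regions with a peak were mostly found in FS1: its full lists overlapped 42.6%, 36.2% and 44.3% of them, those of FS2 15.6%, 12.6% and 14.6%. Such peaks had a median percentile rank of 29.3 to 35.4 in FS1 and 15.5 to 21.1 in FS2. By the rule they must rank below the cut of their list, so these low ranks were fixed in advance. The full ES lists overlapped 6.7%, 0% and 2.95% of the FS-held regions. List length moves with these counts, since the FS1 lists are the longest and the list of ES replicate 2 is the shortest and was not cut. Leaving out any 1 ES library raised the ES-held count from 467 to 822 to 833, and on the lists as deposited 245 regions were ES-held and 1401 FS-held. The shares that held in the full lists also depended on the lists the regions were chosen from: with 2000 peaks they were 26.1% of FS-held and 17.9% of ES-held regions, and at a −log10 q of at least 5 they were 14.9% and 6.25%.

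The 170 ES-held regions that were absent from every full FS list were the most distal. Of these, 8.24% lay at a gene end and 32.9% were over 50 kb from a gene. Among the 297 others, 22.2% lay at a gene end and 28.96% were over 50 kb away. For FS-held regions the 340 that held in the full ES lists gave 45.9% and 4.71%.

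Libraries that had no part in the choice gave an independent reading of both sets. At equal list length the 9 EpiSC libraries had a peak at 72.9% to 82.8% of FS-held regions and at 3.21% to 8.35% of ES-held regions, against 33.19% to 34.4% of all union regions. The mean was 78.7% ± 3.36 (SD, n = 9) for FS-held and 5.62% ± 1.85 (SD, n = 9) for ES-held regions. FS-held regions were ahead in 9 of 9 libraries, by 73.1 points on average (exact two-sided sign-flip permutation over 512 flips, p = 0.00391, the smallest it can give). By line, ES-held shares were 6.85% ± 1.11 in EpiSC_AF, 3.71% ± 0.539 in EpiSC_AFX1 and 6.28% ± 1.94 in EpiSC_AFX2 (SD, n = 3 each), and FS-held shares 76.1% ± 4.46, 79.7% ± 2.31 and 80.3% ± 2.25 (SD, n = 3 each). Libraries of the same line are not independent lines. The FS-held regions also had the higher ranks, in full lists of unequal length, and were more often at gene ends. The part of these in the result was not tested.

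On the EpiSC lists as deposited, FS-held regions were overlapped at 94.8% ± 2.99 (SD, n = 9) and ES-held regions at 38.8% ± 7.78 (SD, n = 9), 56.0 points apart (p = 0.00391 by exact sign-flip permutation). All union regions were overlapped at 53.9% to 69.7% in the same lists. There, 314 of the 373 FS-held regions (84.2%) had a peak in all 9 EpiSC lists and 4 had none. Of the ES-held regions, 64 (13.7%) had a peak in all 9 and 125 (26.8%) in none. Regions absent from every full FS list and every full EpiSC list numbered 87, which is 18.6% of the ES-held set. Of these 87, 11 had a peak in an Rd2_ES list and 21 in an Rd2_EpiLC list. The share of all union regions with a peak in all 9 EpiSC lists or in none is not given here, so these counts have no baseline.

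The Rd2 lists are short and unequal, and 4 against 2 libraries cannot go below 0.0667, so they are described only. The Rd2_ES lists, with 471 and 2576 peaks, overlapped 2.36% and 12.8% of ES-held regions and 0.268% and 3.75% of FS-held regions. They were the 2 libraries of these 17 in which ES-held regions were ahead of FS-held regions. These lists overlapped 1.955% and 10.53% of all union regions. The ES-held shares were thus only a little above those of all union regions, and the FS-held shares were below them. The Rd2_AFX lists overlapped 13.1% and 13.3% of ES-held and 81.8% and 75.9% of FS-held regions, beside 40.0% and 38.4% of all union regions. The Rd2_EpiLC lists, taken 2 days after leaving ES culture, overlapped 23.3%, 40.3%, 16.9% and 41.5% of ES-held regions and 60.6%, 87.9%, 39.1% and 88.5% of FS-held regions. Of all union regions they overlapped 36.7%, 58.6%, 27.7% and 59.4%. Their order followed list length, with 10563, 23608, 7469 and 26045 peaks.

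**Figure D2:**
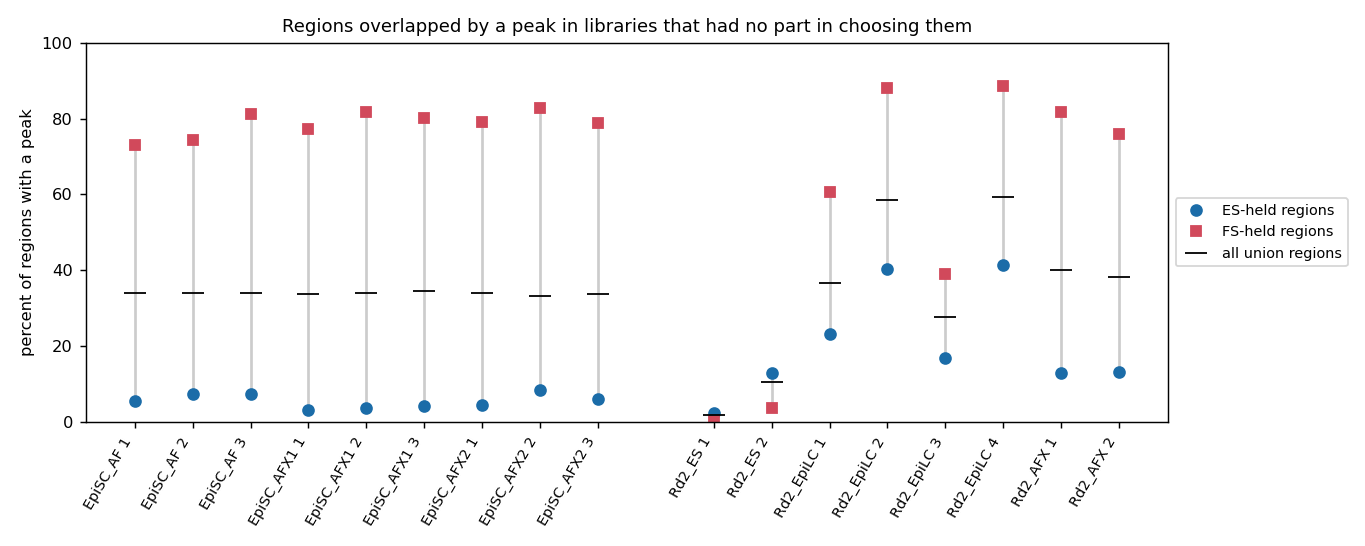
Percent of ES-held regions (circles), FS-held regions (squares) and all union regions (short lines) with a peak in each EpiSC library at equal list length and in each Rd2 library as deposited. FS-held regions are at 72.9% or more and ES-held regions at 8.35% or less in the EpiSC libraries, and the order is turned in the 2 Rd2_ES libraries.

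Few of the genes known for these states lay near the regions. Protein-coding genes within 50 kb numbered 608 for ES-held regions (2.78% of 21883) and 1155 for FS-held regions (5.28%), and the sets shared 19. Of 24 naive genes, 3 were near an ES-held region (Zfp42, Tbx3 and Prdm14) and 2 near an FS-held one (Zfp57 and Tdgf1). These are 12.5% and 8.33% of the list, beside 2.78% and 5.28% of all genes. No gene of the 19 formative or of the 17 FGF and ERK genes was near a region of either set. Of the primed and germ layer genes 1 of 17 was near an ES-held region (Cdx1), and of the core pluripotency genes 1 of 15 (Trim28, in a gene-dense stretch). Near FS-held regions were 1 of 16 Wnt genes (Lrp5) and 2 of 14 Nodal and BMP genes (Skil and Id3).

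Zfp42, which encodes the zinc-finger protein REX1 and is the classical marker of the naive state, had 2 ES-held regions. One covered its promoter at chromosome 8 from 43306959 to 43307410, with a fold enrichment of 3.86, 5.22 and 4.93 in the ES lists. The other lay 13.7 kb away, from 43320729 to 43321235, with 4.34, 4.56 and 3.91. Neither had a peak in any full FS list. The promoter region had a peak in 1 of 9 full EpiSC lists and 2 of 4 Rd2_EpiLC lists, and the distal region in none of either. Neither had a peak in the 2 Rd2_ES lists, which are the shortest of the series. On the full lists 2 of 6 FS libraries had some other peak within 50 kb of the gene. The promoter region is the one whose sequence, with its octamer, is printed above.

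Prdm14, which encodes a repressor of FGF signalling and of DNA methyltransferases in naive cells, had an ES-held region 28.1 kb from the gene, at chromosome 1 from 13084966 to 13085349. Its fold enrichment was 4.25, 3.92 and 3.69 in the ES lists, and no full FS, EpiSC or Rd2 list had a peak there. Within 50 kb of Prdm14 every ES library and no FS library had any peak, on the full lists too. Tbx3, a T-box factor of the same circuit, had an ES-held region 15 bp from a gene end, at chromosome 5 from 119670549 to 119671026. Its ES values were 4.18, 4.55 and 3.67. On the full lists it was present in FS1 at 4.56, 4.73 and 4.62 and in 1 FS2 list at 3.64, and in 9 of 9 EpiSC lists, so this region separated the types at equal list length only.

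Cdx1, a homeobox gene of the posterior epiblast, had an ES-held region 390 bp from a gene end, at chromosome 18 from 61034789 to 61035186, with a fold of 4.3, 4.2 and 3.43 and no peak in any full FS list. Within 50 kb of Cdx1, some other peak stood in 3 of 6 FS lists at equal length and in 5 of 6 full ones. The Trim28 region, 9.53 kb from the gene for the KAP1 corepressor and 4.31 kb from Zbtb45, had a peak in 2 of 6 full FS lists. On the FS side, the region 3.2 kb from Id3, an inhibitor of bHLH factors and a target of BMP, spanned chromosome 4 from 136140310 to 136140624. Its fold enrichment was 5.04, 6.57 and 6.43 in FS1 and 6.07, 4.11 and 3.88 in FS2, with no peak in any full ES list and one in 9 of 9 EpiSC lists. Within 50 kb of Id3, 2 of 3 ES lists had some other peak.

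The other FS-held regions near list genes lay closer to other genes. That near Skil, a SMAD corepressor, covered the end of Cldn11, 26.8 kb away. That near Lrp5, a Wnt coreceptor, covered the end of 1810055G02Rik, 21.4 kb away. That near Zfp57, which guards imprinted loci, covered the end of Ppp1r11, 49.15 kb away, and that near Tdgf1, the Nodal coreceptor Cripto, lay 48.5 kb away and 4.44 kb from Rtp3. None of these 4 regions had a peak in a full ES list, and all 4 had one in 9 of 9 EpiSC lists. Within 50 kb of Skil, Lrp5 and Zfp57, all 3 full ES lists had some other peak, and within 50 kb of Tdgf1 none had.

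A region set is stricter than a gene, so the presence of any peak within 50 kb of each list gene was also counted. Over all 21883 genes, 223 (1.02%) had a peak in all ES and no FS list and 297 (1.36%) the reverse. Among the naive genes Zfp42 and Prdm14 were of the first kind and Tdgf1 of the second, and 4 of 24 had a peak in all 9 lists, beside 27.7% of all genes. Wnt3, a primitive streak ligand, was of the second kind too, with a peak in 1 full ES list. No formative gene was of either kind, although Fgf5 had a peak in no ES list and in 4 FS lists, and Otx2 in no ES or FS1 list and in all 3 FS2 lists. Dnmt3b, the de novo methyltransferase of the peri-implantation epiblast, had one in 5 FS lists and no ES list. Klf4, Nanog and Tfcp2l1 had a peak in all 3 ES lists and in 2, 5 and 5 FS lists. In all, 8 of the 24 naive genes had no peak in any FS list, beside 25.8% of all genes, and 6 had none in any ES list, beside 29.6%.

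The 10 highest-ranked ES-held regions absent from the full FS lists were led by chromosome 13. The first, at chromosome 13 from 66440981 to 66441369, covered the promoter of 2410141K09Rik, a predicted gene, with a fold enrichment of 5.37, 4.8 and 4.28 in ES, and no EpiSC list had a peak there. A further 4 of the 10 were of the same stretch: 2 by Zfp640, at 17.3 kb (66698144 to 66698778) and at its end (66680732 to 66681470), 1 inside Gm31714 (65415026 to 65415461) and 1 by LOC115488129 (66291347 to 66291612). The others were by Prmt6 (1441 kb away), Rbm38 (22 kb), Olfr836 (27.3 kb), Gm40881 (at its end) and Lrrc4c (1000.5 kb). The Rbm38 region lay within 50 kb of Ctcfl, the germline paralog of Ctcf, and had fold values of 6.17, 5.01 and 5.11. Each of the 10 had a peak in at most 3 of 9 full EpiSC lists, and 5 had none.

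The 10 highest-ranked FS-held regions absent from the full ES lists were spread over chromosomes 2, 4, 5, 8, 9, 11 and 15. Leading were regions inside Itga9, an integrin subunit (chromosome 9 from 118793223 to 118793691), and inside Scn8a, a sodium channel (chromosome 15 from 100908824 to 100909229). Itga9 had a fold enrichment of 10.9, 11.4 and 12.3 in FS1 and of 6.81, 6.43 and 5.74 in FS2. Scn8a had 9.72, 12.5 and 12.4 in FS1 and 6.12, 4.83 and 5.49 in FS2. After them came Mn1 (298 kb away), the end of Slc46a3, Tbc1d16, Snph, the end of Ube2u, Sipa1l2 (19.7 kb), Spred2 (72.8 kb) and Zfp385a. Spred2 restrains RAS and ERK signalling. All but 2 of the 10 had a peak in 9 of 9 full EpiSC lists, Itga9 having 8 and Spred2 6, and none had a peak in an Rd2_ES list.

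**Figure D3:**
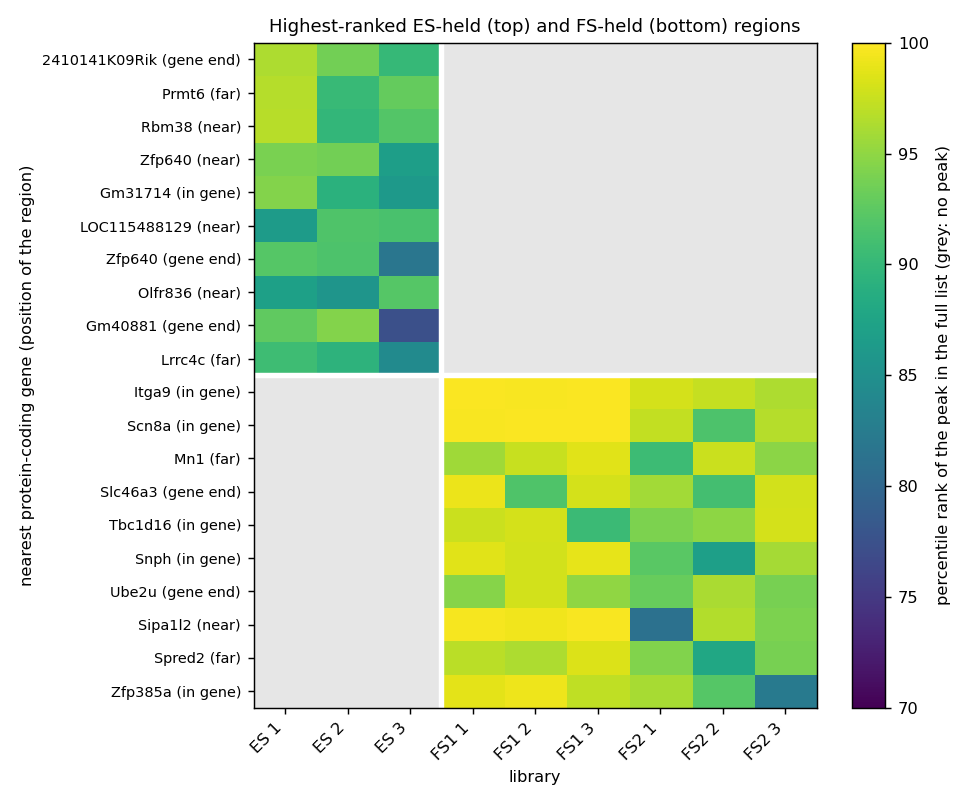
Percentile rank of the peak in each full list (colour, from 70 to 100) at the 10 highest-ranked ES-held regions absent from the full FS lists (upper rows) and the 10 FS-held regions absent from the full ES lists (lower rows). Columns are the 9 libraries and grey means no peak. The first FS-held region has a mean rank of 98.5 and the first ES-held one 93.4, but ranks depend on list length and are not comparable between the sets.

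Some ES-held regions stood close together in groups of 3 or 4, and FS-held regions in pairs only. With a gap of at most 50 kb, 33 ES-held regions (7.07%) fell into 13 chains, of which 9 were pairs, 1 had 3 regions and 3 had 4. The 20 FS-held regions in chains (5.36%) formed 10 pairs and nothing larger. Among all union regions 69.2% were in chains, but they number 22044 and so lie closer together, and this share is no baseline for the sets. With a gap of at most 100 kb, 10.7% of ES-held and 10.7% of FS-held regions were in chains. The largest ES chain then had 5 regions, and the FS chains were still pairs. The ES chains of 4 were at chromosome 13 from 65415026 to 65492174 by Gm31714, at chromosome 13 from 66199553 to 66312511 by LOC115488129 and Gm45965, and at chromosome 8 from 20495141 to 20583886 by Gm40469 and Gm21119. The chain of 3 was at Zfp640, chromosome 13 from 66680732 to 66711386, and all 3 regions held in the full lists. The fifth was a pair by LOC115488029 on chromosome 12. The first FS pairs lay by Tpcn2, Mrgprf and Mrgprd, by Gdpd5, Serpinh1 and Map6, by Aldoc and Pigs with 5 further genes, by Rbx1 and Xpnpep3, and in the interferon alpha cluster with Ifna4, Ifna5 and Ifna6.

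Joining ES-held regions over gaps of up to 500 kb, a gap chosen after the data were seen, gave 4 runs of 9 or more regions, in stretches of zinc-finger, defensin or predicted genes, and the next held 4. The one with the most regions held 18 ES-held regions (3.85% of the set) in 1.36 Mb of chromosome 13, from 65351895 to 66711386. Its 12 protein-coding genes were Zfp640 and 11 predicted genes, in a part of the genome known for tandem KRAB zinc-finger genes. At equal list length the ES lists had 32, 37 and 39 peaks there, the FS1 lists 0, 0 and 0, and the FS2 lists 0, 1 and 4. All 9 EpiSC lists had 0. Of 61 union regions in the run, 56 had no peak in any FS list, and none was FS-held.

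The run was low in the full lists of the other types too. FS1 had 7, 6 and 11 peaks there, FS2 3, 3 and 8, and the EpiSC lists 1 to 16, against 39, 37 and 47 in ES. In Rd2, where these regions were not chosen, the ES lists had 2 and 6 peaks in the run, or 4.25 and 2.33 per 1000 peaks of the list. The EpiLC lists had 8, 18, 8 and 18, or 0.757, 0.762, 1.07 and 0.691 per 1000, and the AFX lists had 0 and 0. The 3 kinds of Rd2 library did not overlap in this rate here, though the ES rate rests on few peaks and the lists differ in length. In the runs on chromosomes 4 and 12, ES overlapped EpiLC. On chromosome 8, ES (27.6 and 8.15 per 1000) was above both other kinds, which overlapped each other. The highest peak in the chromosome 13 run had a percentile rank of 74.9 and 97.6 in the Rd2_ES lists and of 98.3 to 99.6 in the EpiLC lists. Of the 18 regions, 15 had no peak in any full FS list.

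The promoters there resemble each other, as the sequences of 2410141K09Rik and Zfp640 above show. Among 8 annotated promoter windows of 300 bases on chromosome 13 overlapped by ES-held regions from 65415026 to 66711386, the best alignment on either strand matched a median of 83.5% of bases over 28 pairs, with a lowest of 54.7% and a highest of 96.7%. The 93 other ES-held promoter windows matched at a median of 48.7% over 4278 pairs. The promoters of 2410141K09Rik and Zfp640 matched at 87.3%. How reads that fit several copies were placed is not given in the sources used here, so which copies were open is uncertain, and the effect on the number of peaks was not tested.

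The second run was on chromosome 4 from 145594272 to 147793777, with 10 ES-held regions over 2.2 Mb and 16 genes, of which 14 are Zfp genes (such as Zfp980, Zfp987 and Zfp993) and 1 is Rex2. The ES lists had 37, 54 and 46 peaks there, the FS1 lists 8, 4 and 2, the FS2 lists 3, 5 and 8, and the EpiSC lists 1 to 13. Of its 10 regions 1 held in the full lists, where FS1 had 58, 41 and 46 peaks. The third run, on chromosome 8 from 19979867 to 21011098, had 10 ES-held regions by the beta-defensin gene Defb33 and predicted genes. There the ES lists had 33, 41 and 41 peaks, FS1 3, 4 and 4, and FS2 14, 16 and 16, and none of the 10 regions held in the full lists.

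The fourth run, on chromosome 12 from 19175207 to 20426816, had 9 ES-held regions over 1.25 Mb with 13 predicted genes, among them Gm40881 and LOC115488029. The ES lists had 14, 12 and 13 peaks there, the FS1 lists 1, 2 and 1, the FS2 lists 1, 1 and 1, and the EpiSC lists 0 to 2. Of its 9 regions 8 had no peak in any full FS list, so it resembled the run on chromosome 13 in this. ES and FS did not overlap in any of the 4 runs at equal length, which the choice of the runs favours.

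**Figure D4:**
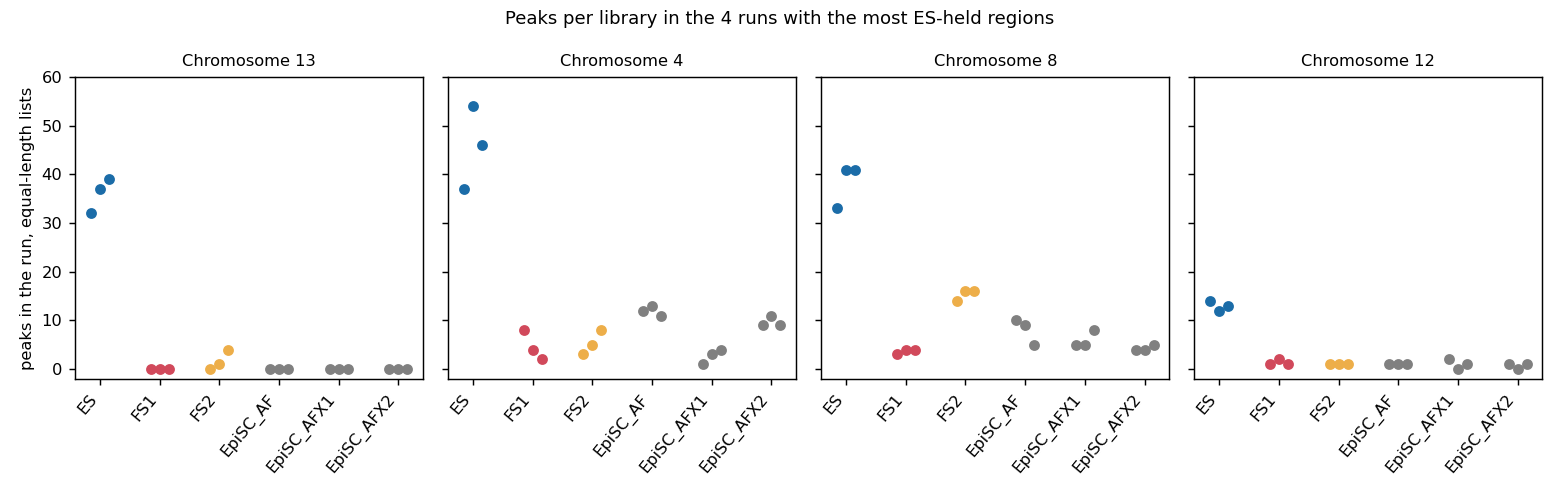
Number of peaks of each equal-length list (points) inside the 4 runs with the most ES-held regions, on chromosomes 13, 4, 8 and 12, for ES, FS1, FS2 and the EpiSC lines. ES libraries have 32 to 54 peaks per run on chromosomes 13, 4 and 8 and 12 to 14 on chromosome 12, FS libraries 0 to 16, and on chromosome 13 every EpiSC library has 0.

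By symbol, Zfp genes were frequent near ES-held regions, a count also made after the data were seen. Of 397 genes named Zfp with a number, 38 (9.57%) were within 50 kb of an ES-held region and 19 (4.79%) of an FS-held one, beside 2.78% and 5.28% of all genes. Neighbours in an array were counted separately. The 38 include genes of the run on chromosome 4, such as Zfp980, Zfp987 and Zfp993, where 1 of 10 ES-held regions held in the full lists. Of ES-held regions 6.64% had such a gene within 50 kb, against 3.49% of FS-held and 3.8% of all union regions. Of 1110 Olfr genes, which encode odorant receptors, 20 (1.8%) were near ES-held regions, below the 2.78% of all genes, and 5 (0.45%) near FS-held ones. Of 355 Vmn genes, which encode vomeronasal receptors, 10 (2.82%) were near ES-held regions, about the share of all genes, and 0 near FS-held ones. The FS run with the most regions, 5 on chromosome 7 from 29859754 to 30698996, held 11 Zfp genes among 44, so Zfp arrays were not only on the ES side.

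Of the 19 motifs searched, those with the widest gaps between the promoters of the sets are given here, a choice made after the shares were seen. FS-held regions overlapped 208 annotated promoter windows of 300 bases and ES-held regions 101, and the 250 bases before the start were searched. The NFY letters CCAATCAG stood in 15.9% of the former and 3.96% of the latter, beside 16.4% of the promoters held by all 9 lists and 3.82% of all promoters. The SP letters GGGGCGGGG stood in 20.2% and 10.9%, beside 26.9% and 10.4%. For both, the FS-held share was nearer to that of promoters open in all 9 lists. GGAATG stood in 8.65% of FS-held and 16.8% of ES-held promoters, of which the copies on chromosome 13 are a part, beside 12.6% of all. The median GC content of the 300-base windows was 61.0% for FS-held, 62.3% for ES-held and 52.7% for all promoters. These are descriptions over promoters, which are not replicates.

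The regions were also spread unevenly over chromosomes. Chromosome 13 had 46 ES-held regions (9.85%, against 4.32% of union regions) and 10 FS-held ones (2.68%). Chromosome 12 had 31 (6.64%, against 3.96%) and 9 (2.41%). Chromosome 15 had 32 FS-held regions (8.58%, against 4.46%) and 11 ES-held ones (2.36%). The X had 3 FS-held (0.804%) and 18 ES-held regions (3.85%), against 2.45% of union regions. Over all peaks of the equal-length lists, those of the chosen regions included, 17 of the 20 chromosome shares (85%) differed between ES and FS after adjustment (exact permutation, Benjamini-Hochberg). Of these, 10 were higher in ES and 7 higher in FS. Shares of 1 list are not independent of each other, and with any 1 ES library left out no chromosome passed (0 of 20); without FS1 replicate 2 or FS2 replicate 2 the number was 11, and without FS2 replicate 3 it was 10.

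On chromosome 13 the share was 4.79% ± 0.116 (SD, n = 3) in ES and 3.65% ± 0.16 (SD, n = 6) in FS (exact permutation p = 0.0119, adjusted p = 0.0216). Chromosome 11, which is gene-dense, went the other way with 6.24% ± 0.361 (SD, n = 3) and 7.51% ± 0.158 (SD, n = 6), at the same p and adjusted p from the exact permutation test. On chromosome 15 the FS lines stood apart: ES had 3.42% ± 0.087, FS1 4.44% ± 0.0995 and FS2 5.98% ± 0.14 (SD, n = 3 each). For the X the values were 2.49% ± 0.038, 2.07% ± 0.0873 and 1.08% ± 0.0861 (SD, n = 3 each). ES against FS gave an exact permutation p of 0.0238 and an adjusted p of 0.0317 on both chromosomes. The X missed the threshold on the lists as deposited (adjusted p = 0.0595), ranked by fold (0.051) and without FS1 replicate 2 or any 1 FS2 library (0.051 to 0.084), and chromosome 15 without FS1 replicate 2, FS2 replicate 2 or FS2 replicate 3 (0.051 to 0.067), by the same exact permutation test. FS1 and FS2 did not overlap on either, and no test was made, as the smallest p for 3 against 3 is 0.1. The labels give no karyotype, and chromosome number cannot be told apart from openness in these lists. The Y had 42 to 65 peaks in ES, 10 to 19 in FS1 and 28 to 38 in FS2.

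**Figure D5:**
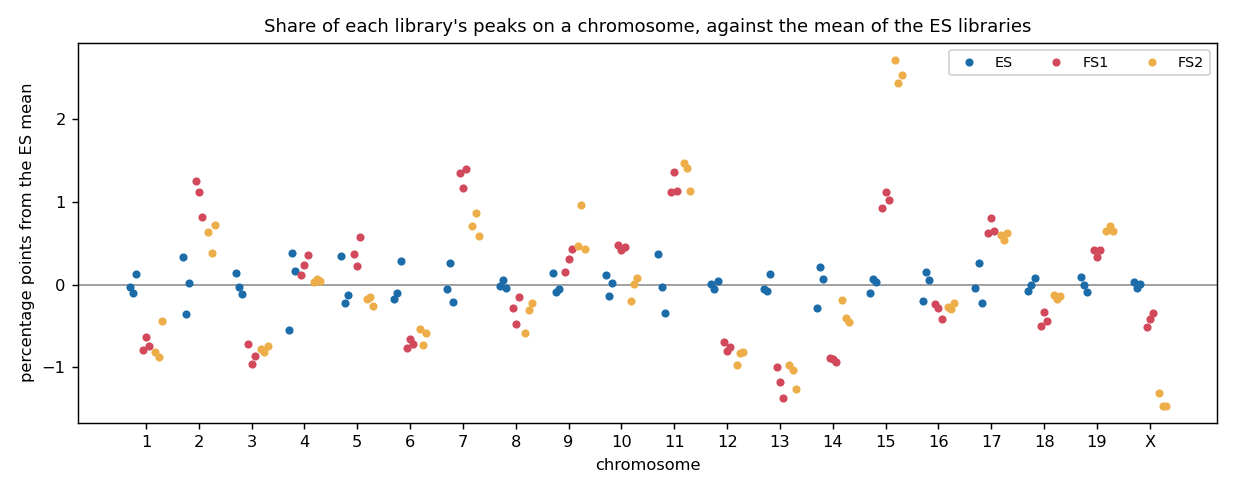
Share of each library's peaks on a chromosome minus the mean of the ES libraries (percentage points), by chromosome, with 1 point per library. FS libraries lie below ES on chromosome 13 (3.65% against 4.79% on average) and above it on chromosome 11 (7.51% against 6.24%), and FS2 stands apart from FS1 on chromosomes 15 and X.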

How the data were processed

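ATAC-seq libraries were made from 50,000 cells each with Tn5 from a Nextera kit, per the labels' protocols. The deposited files are broadPeak lists, 1 per library. The submitters' processing notes name Trim Galore, Bowtie, Picard, MACS2 and build mm10, with no versions. Each peak carries the authors' fold enrichment (a ratio), the authors' −log10 p and −log10 q, and a deposited score that was not used. Fold and −log10 values depend on the library, so they rank or describe peaks within a list, and those printed for several lists are not compared. The shortest peak was 150 bp in ES, FS and EpiSC lists and 110 bp in Rd2, so Rd2 was described apart.

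Lists were ranked by −log10 p and cut to equal length. Regions, gene distances (21883 protein-coding genes of GRCm38.p6) and tests were computed in Python 3.11.15 code (pandas 2.3.3, scipy 1.17.1) that was tested on simulated lists with planted regions. Replicates were checked for duplicate deposits, and at most 0.0746% of peaks had identical coordinates in any pair within ES, FS1 or FS2. Differences of means over libraries were tested by exact two-sided permutation with Benjamini-Hochberg adjustment over 5 position measures or 20 chromosomes, and recovery by exact sign-flip permutation, with a threshold of 0.05. Motif content of all peaks needs a genome and was not analysed here. Regions named were the 10 of highest mean rank in each set with no peak in full lists of the other type, the 5 longest chains, and all within 50 kb of a list gene. The run gap, the symbol families and the peak count within 50 kb of list genes were added after seeing the data. The members and lists were chosen with earlier results of these data known. Alternatives were other rankings, lengths, windows and gaps, each line alone, each library left out and a replicate block.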

Additional observations from a re-analysis of the deposited data

Results flagged for a closer look

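Median peak width at equal list length moved in opposite directions in the FS lines. FS1 minus ES was 87 bp and FS2 minus ES was −19.7 bp, with every FS1 library wider and every FS2 library narrower than every ES library. The difference between the lines was not tested.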

How the results depend on the processing

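The direction of EpiSC recovery held in all 22 alternatives, with FS-held minus ES-held between 38.6 and 82.4 points (72.9 without the chromosome 13 cluster, an alternative chosen after seeing the data). The sizes of the sets depended on the lists. ES-held and FS-held regions numbered 234 and 163 at 5000 peaks, 78 and 46 at 2000, 245 and 1401 as deposited, 16 and 141 at a −log10 q of at least 5, and 710 and 1122 against FS1 alone. FS-held regions numbered 762 against FS2 alone, and ES-held regions 273 when presence needed 50% of the region. Leaving out 1 library gave 484 to 833 ES-held regions. ES-held regions over 50 kb from a gene were 23.9% at 5000 peaks, 25.6% at 2000, 36.7% as deposited, 43.75% at the q limit and 24.6% against FS2 alone. FS-held regions at gene ends were 54.3% at 2000 and 64.5% at the q limit, and 43.7% to 53.4% with 1 library left out. The ES minus FS differences at gene ends, outside genes and far from genes were −7.25, 8.61 and 6.27 points at 5000 peaks and 1.35, 3.17 and 5.36 as deposited. Against FS1 alone they were −11.7, 12.2 and 8.56, and against FS2 alone −6.06, 8.30 and 7.62, where 3 against 3 libraries cannot go below 0.1. Width was 6.5 bp wider in ES as deposited and 19.7 bp against FS2 alone. Ranked by fold enrichment, the difference inside genes was −1.39 points and passed (exact permutation, adjusted p = 0.0446). With 1 library left out the ranges were −9.75 to −8.24 at gene ends, −1.59 to −1.06 inside genes, 9.75 to 10.8 outside and 7.54 to 8.42 far. Chromosomes past the threshold then ranged from 0 to 16. The cause of these changes was not tested, except that fewer libraries raise the smallest p. Motif alternatives over all peaks were not run.

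Replicate numbers did not pair the libraries: over 9 same-numbered pairs the correlations of deviations ran from −0.0121 to 0.00823. With a replicate block the differences were −8.86, 10.3 and 8.09 points (exact permutation, adjusted p = 0.0617), and 0 chromosomes passed.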
